A study of Homo sapiens with 33 samples.

Results

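SR splicing factors and the CLK kinases that phosphorylate them were followed by 10 genes taken by name from the deposited count table: SRSF1, SRSF2, SRSF3, SRSF5, SRSF6, SRSF7 and TRA2B, and the kinase genes CLK1, CLK2 and CLK4. All 10 were among the 26475 genes of the table, and all 10 were among the 14613 genes with enough counts to be tested. SR proteins bind exonic enhancer sequences through RNA recognition motifs and recruit the spliceosome through a domain rich in arginine and serine. CLK kinases, which sit in the nucleus, phosphorylate that domain and release SR proteins from nuclear speckles. Many genes of the SR family, and CLK1 and CLK4 themselves, are known to make transcripts with retained introns or with poison exons, so that the level of a gene's RNA and of its protein need not move together.

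The study transfected HEK293T cells, a line from human embryonic kidney that carries the SV40 large T antigen, with base editor or control plasmids, sorted GFP-positive cells 36 to 40 h later and sequenced their total RNA. A base editor joins a Cas9 nickase (nCas9) to a deaminase that converts bases near the guide's target. Transcript counts were compared to see how expression changes with each construct. There were 4 editors, tested with both guides, of which the first targets HEKsite2 and the second RNF2. ABEmax and miniABEmax-V82G carry adenine deaminases, Target-AID carries a cytosine deaminase, and SpACE carries a deaminase of each kind. The controls were nCas9 without a deaminase, with the same guides, and GFP with no guide. Per the labels' protocols the editor plasmids also encoded EGFP behind a P2A peptide, and cells of every group, GFP controls included, were sorted as GFP-positive. Counts per gene sum all of its transcripts, so productive transcripts cannot be told from those with poison exons or retained introns. Each of the 11 groups had 3 libraries, 33 in all. The labels do not say whether replicates were separate cultures, so p-values measure only the spread between these libraries. The columns of the SpACE libraries carry UGI in their names and the sample labels do not mention it.

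Total counts ran from 6790209 to 11200406 per library, and the 10 genes together took from 0.268% to 0.363% of a library. The lowest count of any of them in a library was 125 and the highest 8452. Of 6 markers of the line, 5 had counts in every library and PAX2 stayed at or under 0.809 CPM. Summed markers of liver, erythroid and blood cells reached at most 1.15, 0.474 and 1.54 CPM. Fibroblast markers summed to between 6.69 and 13.1 CPM. Replicate 3 of Target-AID with RNF2 lay farthest from its group, and results that rest on it are given without it. In sorted bulk cells, fewer cells expressing a gene and less RNA per cell cannot be told apart. Levels are in CPM, counts scaled to TMM-adjusted library sizes, and are given for replicates 1, 2 and 3 in turn or as mean ± SD over 3 libraries; log2 fold changes are given ± SE from the edgeR quasi-likelihood fit of all 33 libraries. A gene is called when its p-value, adjusted by the Benjamini-Hochberg method over 14613 genes, is under 0.05. Where all libraries of a group are said to lie above or below another group, the share of all genes that do so was not computed.

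The genes lie on 8 chromosomes and differ widely in abundance. Per kilobase of exon, SRSF1 was the most abundant, at 299 CPM per kb in nCas9 with HEKsite2 and 231 in GFP. SRSF1 (GRCh38 chr17:58003360-58007346, minus strand) is the founding member of the family and both activates and represses splice sites. SRSF7 (chr2:38743599-38751494, minus strand), which carries a zinc knuckle, and SRSF3 (chr6:36594353-36605600, plus strand), the smallest SR protein and an adaptor of mRNA export, stood at 181 and 147 CPM per kb in nCas9 with HEKsite2. The CLK genes were the least abundant per length. CLK1 (chr2:200853009-200864744, minus strand) had 23.8, CLK2 (chr1:155262868-155278491, minus strand) 20.1 and CLK4 (chr5:178602664-178630615, minus strand) 6.99 CPM per kb in the same group. SRSF2 (chr17:76734115-76737374, minus strand) shares 1106 exonic bases with MFSD11 on the opposite strand; MFSD11 had 7177 counts over all libraries and SRSF2 had 90696, and the strand setting of the count is not given in the sources used here. CLK2 has a pseudogene in the table, CLK2P1, which had 32 counts over all libraries, against 12836 for CLK2.

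Promoter sequences are shown because several of these genes moved together. RefSeq (GRCh38.p14) gave the 250 bases before each listed start of 9 of the 10 genes, SRSF2 being the exception. A gene counted as a match if any of its starts had one, so genes with more starts had more chances. The CLK1 site, for example, lay 49 bases before one start and 146 before another. TGACG, the core of the cyclic AMP response element, read on either strand, was present in 7 of those 9 and in 24.9% of the 27305 genes with an entry. The 27305 were not limited to the 14613 genes tested for expression, and the share among those was not computed. The 7 were SRSF1, SRSF3, SRSF5, SRSF7, TRA2B, CLK1 and CLK4, and SRSF6 and CLK2 had no match. SRSF6, without the core, was higher in every group with a guide than in GFP. SRSF5, with the core, was called against GFP in 1 group only. The full palindrome of that element, TGACGTCA, which contains the core, was in 0 of 9, against 2.03% of all genes. Heat shock element units, GAANNTTC and TTCNNGAA, were in 0 of 9, against 7.05% and 8.12% of all genes, and TGATGNAA, an amino acid response element, was in 0 of 9, against 3.89%. A match is a stretch of letters and not a bound site, and a link between matches and levels was not tested. The windows around the core in 5 of the genes are written on the gene's own strand. The core, TGACG or its reverse complement CGTCA, is in capitals. CLK1 and TRA2B are shown as genes that were higher in every group with a guide than in GFP, SRSF1 and SRSF7 as genes called lower than nCas9 in Target-AID, and SRSF3 as the gene that was lower than GFP.
CLK1: acgcgctcgctgCGTCAtcagtgttttcga
TRA2B: ggggcggggtcaCGTCActtcctgtgcggg
SRSF1: tcgtggggagggTGACGtcgcgcgtgcgtg
SRSF7: agaacaacgagaTGACGcatgcgcaaagcg
SRSF3: tttgtagccataCGTCAcggcctcttctgc
In the same order they lie at chr2:200864690-200864719, chr3:185938130-185938159, chr17:58007379-58007408, chr2:38751402-38751431 and chr6:36594257-36594286, the first 4 on the minus strand and the last on the plus strand. RefSeq starts can lie inside the gene span given by GENCODE.

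Against nCas9 with the same guide, the question is what an editor adds to the nickase. A deaminase cannot be told apart there from any other part in which the constructs differ, which for SpACE may include UGI. CLK1 and TRA2B were higher with most editors, CLK4 was higher with ABEmax under both guides and with Target-AID under HEKsite2, and SRSF1 and SRSF2 were lower with most editors. With HEKsite2, 3 of the 10 genes were higher and 1 lower with ABEmax, where 8.31% and 7.55% of all genes tested were called higher and lower. The counts were 1 and 1 with miniABEmax-V82G (5.02% and 5.32% of all genes), 3 and 4 with Target-AID (21.5% and 19.1%), and 2 and 3 with SpACE (10.7% and 10.2%). With RNF2, 3 were higher and 0 lower with ABEmax (6.51% and 4.66% of all genes), 2 and 1 with miniABEmax-V82G (6.88% and 5.72%), 2 and 4 with Target-AID (19.4% and 15.8%), and 0 and 2 with SpACE (8.03% and 6.68%). With Target-AID, where many genes moved, the 4 lower genes of 10 stood beside 19.1% and 15.8% of all genes. The 4 editors of a guide share its 3 nCas9 libraries, so these comparisons are not independent. Against GFP, nCas9 had 7 genes higher and 1 lower with HEKsite2, where 19.6% and 18.8% of all genes were called higher and lower, and 6 and 1 with RNF2 (21% and 20.5%). The editors with HEKsite2 against GFP had 6 higher and 1 lower with ABEmax (23.5% and 23.2% of all genes), 5 and 1 with miniABEmax-V82G (20% and 19.8%), 4 and 2 with Target-AID (24.6% and 21.8%) and 5 and 2 with SpACE (18.5% and 18.2%). With RNF2 they had 7 and 1 with ABEmax (25.2% and 24.4%), 6 and 1 with miniABEmax-V82G (23.5% and 23.5%), 4 and 2 with Target-AID (24.6% and 21.5%) and 5 and 2 with SpACE (18.9% and 19%). The 10 genes, and the lists of related genes below, were chosen with earlier results of these data known. Their counts beside the shares of all genes are therefore not a test of the family. All 10 comparisons with GFP share its 3 libraries. They differ from those with nCas9 in the guide plasmid and in the Cas9 transcript as well, which cannot be told apart.

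**Figure D1:**
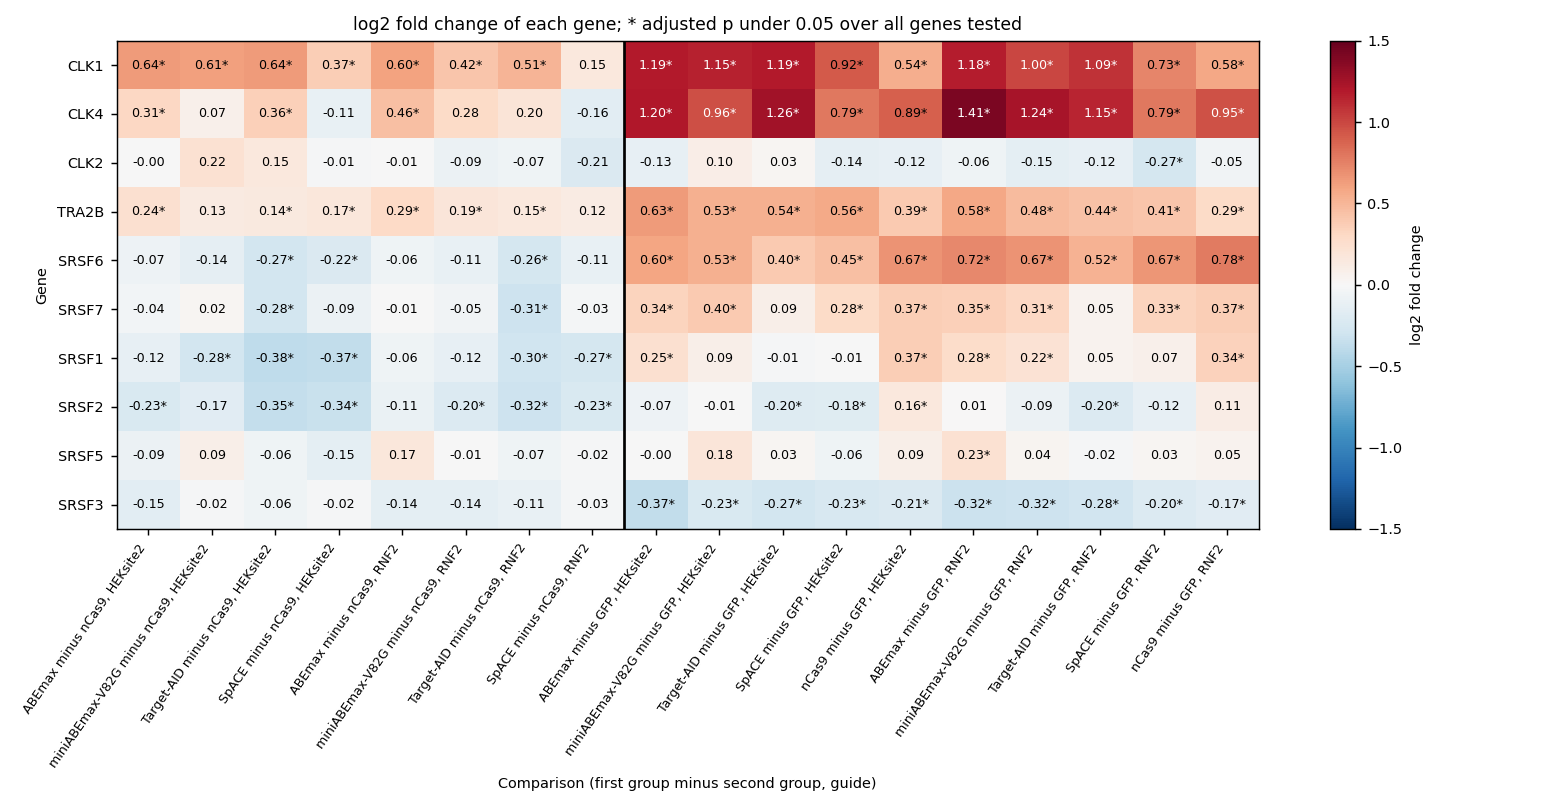
The log2 fold change of each gene (rows) in 18 comparisons (columns), the first-named group minus the second, with a star where the adjusted p was under 0.05. The 8 columns left of the line set an editor against nCas9 and the 10 right of it set an editor or nCas9 against GFP; CLK1, CLK4, TRA2B and SRSF6 are starred as higher, and SRSF3 as lower, in all 10 columns against GFP.

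CLK1, a kinase with activity on serine, threonine and tyrosine that is known to act on SRSF1, showed a graded pattern, with most editors above nCas9 and nCas9 above GFP. With HEKsite2 its levels were 79.8, 114 and 83.0 CPM in ABEmax, 84.4, 94.4 and 91.1 in miniABEmax-V82G, 89.3, 99.3 and 87.0 in Target-AID and 81.2, 74.8 and 73.3 in SpACE, against 65.2, 53.4 and 57.9 in nCas9. With RNF2 they were 90.4, 96.8 and 88.2 CPM in ABEmax, 74.3, 85.0 and 83.3 in miniABEmax-V82G, 90.2, 91.3 and 76.6 in Target-AID and 66.6, 62.2 and 73.2 in SpACE, against 57.5, 64.2 and 59.8 in nCas9. The GFP libraries had 46.0, 39.7 and 35.4 CPM. Every library of the 7 editor groups other than SpACE with RNF2 lay above the nCas9 libraries of its guide, and every library with a guide lay above GFP. The log2 fold change over nCas9 with HEKsite2 was 0.64 ± 0.0990 for ABEmax (adjusted p = 8.92e-06), 0.61 ± 0.0971 for miniABEmax-V82G (3.23e-05), 0.64 ± 0.0968 for Target-AID (1.06e-06) and 0.37 ± 0.0985 for SpACE (0.00536). With RNF2 it was 0.60 ± 0.0973 for ABEmax (adjusted p = 3.52e-05), 0.42 ± 0.0985 for miniABEmax-V82G (0.00365) and 0.51 ± 0.0967 for Target-AID (6.12e-05). For SpACE with RNF2 the difference from nCas9 was 0.15 ± 0.0991, did not pass the test (adjusted p = 0.328) and had a 95% interval of -0.047 to 0.35. CLK1 in nCas9 stood 1.46-fold over GFP with HEKsite2 (0.54 ± 0.104 on the log2 scale, adjusted p = 5.67e-05) and, with RNF2, higher by 0.58 ± 0.103 on the log2 scale (1.72e-05). Against GFP, ABEmax stood at 2.28-fold with HEKsite2 and 2.27-fold with RNF2. Replicate 2 of ABEmax with HEKsite2 had the highest CLK1 level of all libraries, and the call of ABEmax over nCas9 was kept without it.

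CLK4, the closest relative of CLK1, had the widest range of the 10 genes, 2.66-fold between the highest and lowest group mean, and most of that lay between GFP and the rest. In ABEmax it stood at 33.3, 39.8 and 31.4 CPM with HEKsite2 and 39.7, 42.0 and 38.5 CPM with RNF2. In nCas9 it stood at 29.6, 25.8 and 28.7 CPM with HEKsite2 and 28.0, 28.8 and 31.0 CPM with RNF2. The GFP libraries had 14.6, 16.7 and 13.8 CPM, below every other library. The log2 fold change of nCas9 over GFP was 0.89 ± 0.110 with HEKsite2 (adjusted p = 2.72e-08) and 0.95 ± 0.109 with RNF2 (4.47e-09). ABEmax lay wholly above nCas9 under both guides. The differences of ABEmax from nCas9 were 0.31 ± 0.103 with HEKsite2 (adjusted p = 0.0338) and 0.46 ± 0.0983 with RNF2 (0.00162). The call with HEKsite2 was lost without replicate 2 of ABEmax, which lowered the difference to 0.20 (adjusted p = 0.263), and without replicate 2 or 3 of nCas9. Target-AID with HEKsite2 had 37.8, 38.3 and 31.7 CPM, higher than nCas9 by 0.36 ± 0.0987 (adjusted p = 0.00307). Target-AID with RNF2 had 40.7, 30.4 and 29.3 CPM, which overlapped nCas9. That difference, 0.20 ± 0.0987, missed the test (adjusted p = 0.122), and without replicate 3, the library that lies farthest from its group, it was 0.28 and passed (0.0262). In miniABEmax-V82G the 3 libraries with RNF2 (36.1, 34.3 and 36.4 CPM) lay above nCas9, with a difference of 0.28 ± 0.0999 and an adjusted p of 0.0537, which passed in 3 alternatives, among them the replicate block (0.0494). SpACE overlapped nCas9 with HEKsite2 and lay below it with RNF2. Its levels were 27.0, 24.8 and 26.3 CPM with HEKsite2 and 26.0, 25.1 and 27.5 CPM with RNF2, and neither difference from nCas9 passed (-0.11 ± 0.103 and -0.16 ± 0.102; adjusted p = 0.503 and 0.325).

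CLK2, a kinase of the same family that is also a target of AKT signalling, did not share this pattern. Its library values ran from 33.4 to 54.5 CPM, the GFP libraries (44.6, 54.5 and 43.0 CPM) lay inside the range of the others or just above it, and no neighbouring groups in the order of means were free of overlap. None of its 8 differences between an editor and nCas9 passed. The largest were 0.22 ± 0.0933 for miniABEmax-V82G with HEKsite2 (95% interval 0.035 to 0.41, adjusted p = 0.124) and -0.21 ± 0.0954 for SpACE with RNF2 (-0.40 to -0.019, 0.135). Against GFP it was called lower in SpACE with RNF2 (-0.27 ± 0.0930, adjusted p = 0.0213), and that call was lost without SpACE replicate 1 or GFP replicate 2.

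**Figure D2:**
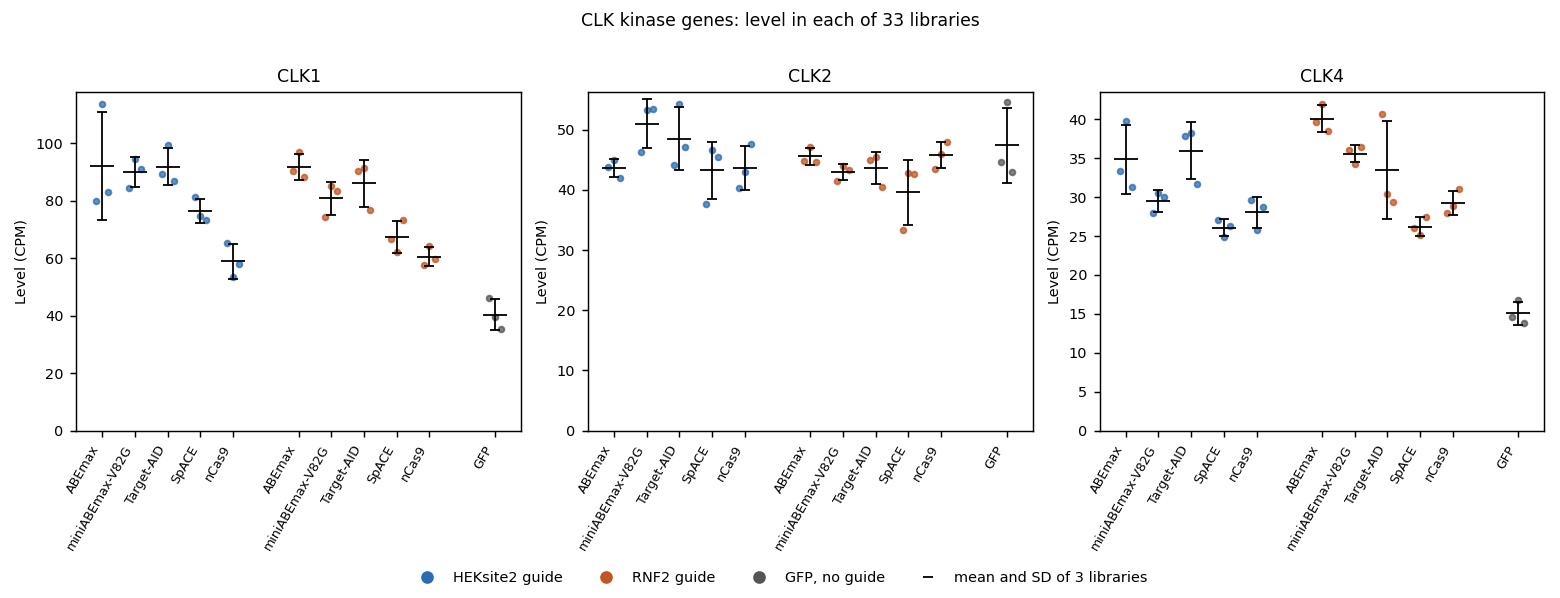
Level in CPM of CLK1, CLK2 and CLK4 in each of 33 libraries (points, 3 per group), with the group mean and SD in black; groups run from editors to nCas9 for the HEKsite2 guide and the RNF2 guide, with GFP last. GFP libraries lie at 35.4 to 46.0 CPM for CLK1 and 13.8 to 16.7 CPM for CLK4, below every other library, whereas CLK2 overlaps across groups.

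Ratios of counts within a library need no scaling between libraries. CLK1 counts were 2.11 ± 0.369 times those of CLK2 in ABEmax, 1.77 ± 0.0609 in miniABEmax-V82G, 1.90 ± 0.109 in Target-AID and 1.79 ± 0.313 in SpACE with HEKsite2, against 1.36 ± 0.223 in nCas9 with that guide (mean ± SD, n = 3 each). With RNF2 the ratio was 2.02 ± 0.0411 in ABEmax, 1.88 ± 0.0768 in miniABEmax-V82G, 1.97 ± 0.0676 in Target-AID and 1.72 ± 0.269 in SpACE, against 1.32 ± 0.0735 in nCas9. In GFP it was 0.861 ± 0.155. The ratio of CLK1 to CLK2 was therefore above 1 in every group with a guide and below 1 on average in GFP. The ratio of CLK4 to CLK2 with HEKsite2 was 0.798 ± 0.0756 in ABEmax, 0.580 ± 0.0222 in miniABEmax-V82G, 0.746 ± 0.0984 in Target-AID and 0.610 ± 0.0950 in SpACE, against 0.646 ± 0.0755 in nCas9, so that miniABEmax-V82G and SpACE averaged below nCas9. With RNF2 it was 0.880 ± 0.0158 in ABEmax, 0.831 ± 0.0460 in miniABEmax-V82G, 0.766 ± 0.124 in Target-AID and 0.670 ± 0.0990 in SpACE, against 0.639 ± 0.0111 in nCas9, and in GFP it was 0.319 ± 0.0108. The ratio of CLK1 to CLK4 with HEKsite2 was 2.63 ± 0.232 in ABEmax, 3.05 ± 0.0389 in miniABEmax-V82G, 2.57 ± 0.192 in Target-AID and 2.93 ± 0.128 in SpACE, against 2.10 ± 0.0971 in nCas9. With RNF2 it was 2.29 ± 0.0134 in ABEmax, 2.27 ± 0.209 in miniABEmax-V82G, 2.61 ± 0.396 in Target-AID and 2.57 ± 0.0922 in SpACE, against 2.07 ± 0.150 in nCas9, and GFP, at 2.69 ± 0.401, lay above nCas9. TRA2B counts relative to SRSF2 were at least 1.29 in the means of the 8 editor groups, against 1.05 ± 0.0171 in nCas9 with HEKsite2, 1.02 ± 0.0742 in nCas9 with RNF2 and 0.896 ± 0.0208 in GFP. The ratio of SRSF6 to SRSF3 had means between 0.545 and 0.701 in the groups with a guide, against 0.342 ± 0.00538 in GFP. No test was run on these ratios, and they show unequal change, not which gene of a pair moved.

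**Figure D3:**
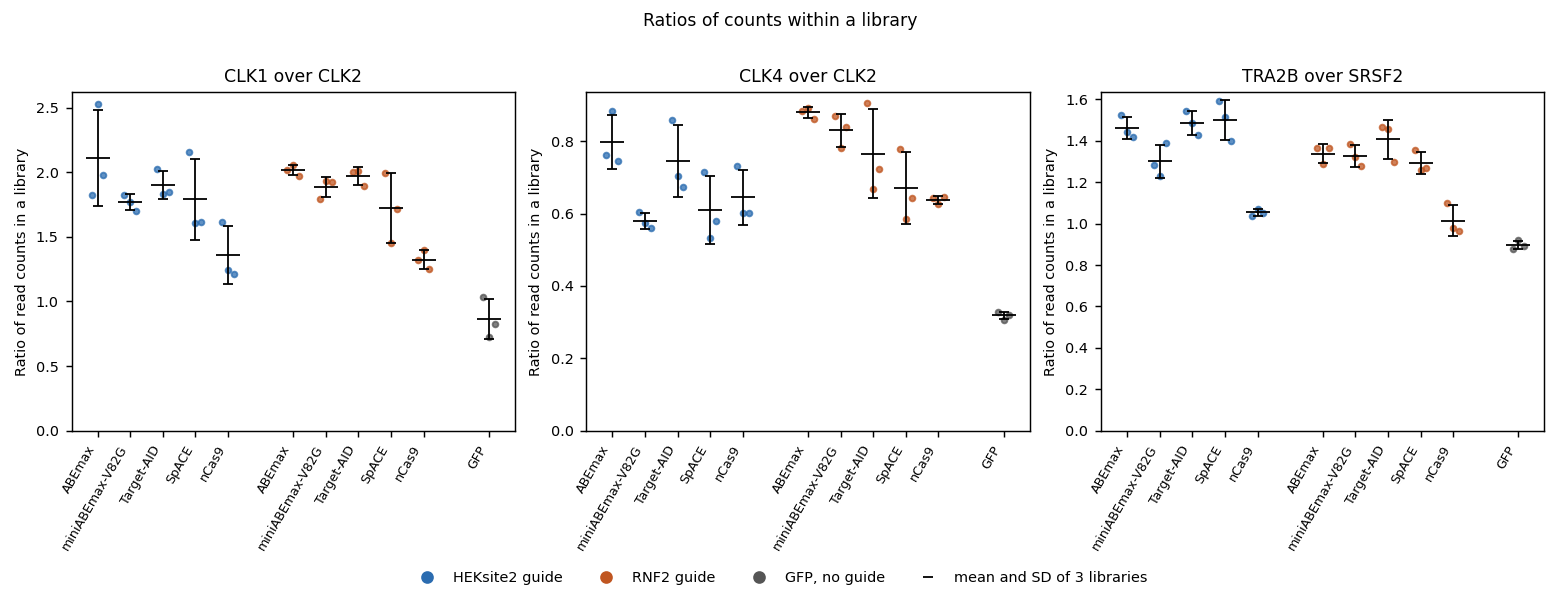
Ratio of read counts within each library for CLK1 over CLK2, CLK4 over CLK2 and TRA2B over SRSF2 (points), with the mean and SD of 3 libraries in black. Editors lie above nCas9, and nCas9 above GFP, in the means of the CLK1 and TRA2B panels.

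TRA2B (chr3:185915906-185938136, minus strand), an SR-like activator of exons that contain GAA repeats and a known substrate of the CLK kinases, was called higher than nCas9 in 6 of the 8 editor groups, with smaller changes than CLK1. With HEKsite2 it stood at 478, 452 and 449 CPM in ABEmax, 439, 419 and 423 in miniABEmax-V82G, 439, 433 and 416 in Target-AID and 467, 429 and 419 in SpACE, against 413, 378 and 376 in nCas9. With RNF2 it stood at 461, 442 and 429.9 CPM in ABEmax, 409, 415 and 411 in miniABEmax-V82G, 404, 403 and 402 in Target-AID and 423, 364 and 394 in SpACE, against 379, 356 and 351 in nCas9. The GFP libraries had 302, 298 and 289 CPM, below every other library. All 3 libraries lay above nCas9 in every editor group but SpACE with RNF2. The increase was largest with ABEmax, at 0.24 ± 0.0554 with HEKsite2 (adjusted p = 0.00208) and 0.29 ± 0.0554 with RNF2 (3.09e-04), and those calls were kept in every alternative run. Target-AID gave 0.14 ± 0.0552 (adjusted p = 0.0365) with HEKsite2 and 0.15 ± 0.0553 (0.0279) with RNF2. SpACE with HEKsite2 gave 0.17 ± 0.0552 (0.0228) and miniABEmax-V82G with RNF2 gave 0.19 ± 0.0555 (0.0218). These 4 calls were each lost when low-count genes were not filtered out and when some single libraries were left out, and the pair in Target-AID also when only the groups compared were fitted (adjusted p = 0.0893 with HEKsite2 and 0.137 with RNF2). The other pair of differences, 0.13 ± 0.0552 for miniABEmax-V82G with HEKsite2 and 0.12 ± 0.0554 for SpACE with RNF2, missed the test (adjusted p = 0.116 and 0.143); the first passed with the replicate block (0.0487) and the second without replicate 2 of SpACE (0.0475). Between nCas9 and GFP TRA2B was higher by 0.39 ± 0.0556 with HEKsite2 (adjusted p = 4.02e-07) and 0.29 ± 0.0556 with RNF2 (5.14e-05).

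SRSF6 (also known as SRp55; chr20:43457928-43464247, plus strand) showed the largest rise of any SR gene with nCas9 over GFP and then lower levels with Target-AID under both guides and with SpACE under HEKsite2. It had 443, 395 and 380.2 CPM in nCas9 with HEKsite2 and 450.3, 429 and 439 CPM with RNF2, against 265, 253 and 248 CPM in GFP, which makes 1.59-fold and 1.72-fold (0.67 ± 0.0620 and 0.78 ± 0.0619 on the log2 scale, adjusted p = 4.28e-11 and 5.09e-13). Target-AID had 348, 329 and 332 CPM with HEKsite2 and 356, 350.5 and 393 CPM with RNF2, in each case below all nCas9 libraries of the guide. SRSF6 fell by 0.27 ± 0.0615 with HEKsite2 (adjusted p = 4.33e-04) and by 0.26 ± 0.0612 with RNF2 (8.38e-04) on the log2 scale. SpACE with HEKsite2 had 358, 351 and 340.4 CPM, a difference of -0.22 ± 0.0615 (adjusted p = 0.00958) that was lost without replicate 1 of nCas9. With ABEmax it had 386 ± 28.2 CPM with HEKsite2 and 420.2 ± 20.1 CPM with RNF2, and neither passed against nCas9. Even in Target-AID, SRSF6 stayed above GFP, by 0.40 ± 0.0619 with HEKsite2 (adjusted p = 1.17e-06) and 0.52 ± 0.0618 with RNF2 (5.06e-09).

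SRSF7 (9G8), an export adaptor as well as a splicing factor, was called lower than nCas9 in Target-AID under both guides and in none of the other 6 editor groups. Its levels were 374, 367 and 373 CPM in Target-AID against 510.0, 423 and 420.3 CPM in nCas9 with HEKsite2. With RNF2 they were 348, 349.7 and 386 CPM in Target-AID against 458, 446 and 442 CPM in nCas9. No Target-AID library reached the lowest nCas9 library, and the difference was -0.28 ± 0.0638 (adjusted p = 4.66e-04) with HEKsite2 and -0.31 ± 0.0638 (1.69e-04) with RNF2. For those 6 groups the differences from nCas9 ran from -0.092 to 0.025. In nCas9 it stood over GFP (366, 346 and 333 CPM) by 0.37 ± 0.0638 with HEKsite2 (adjusted p = 1.03e-05) and 0.37 ± 0.0638 with RNF2 (1.26e-05). Target-AID was the editor for which SRSF7 was not called against GFP, with 0.094 ± 0.0638 (95% interval -0.035 to 0.22) and 0.054 ± 0.0638 (-0.075 to 0.18); these values share the GFP libraries with the other editors' comparisons.

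SRSF1 was higher in nCas9 than in GFP and lower in Target-AID and SpACE than in nCas9. It had 781, 737 and 681 CPM in Target-AID and 760.0, 718 and 735 CPM in SpACE, against 1025, 955 and 888 CPM in nCas9, all with HEKsite2. With RNF2 it had 778, 747 and 769 CPM in Target-AID and 834, 736 and 767 CPM in SpACE, against 973, 921 and 920.4 CPM in nCas9. The GFP libraries had 772, 725 and 723 CPM and overlapped Target-AID and SpACE. SRSF1 fell in Target-AID by 0.38 ± 0.0599 with HEKsite2 (adjusted p = 2.04e-06) and 0.30 ± 0.0598 with RNF2 (1.46e-04) on the log2 scale. It fell in SpACE by 0.37 ± 0.0599 with HEKsite2 (1.34e-05) and 0.27 ± 0.0598 with RNF2 (0.00155). MiniABEmax-V82G with HEKsite2 had 833, 785 and 744 CPM and was lower (-0.28 ± 0.0598, adjusted p = 0.00153). With RNF2 it missed the test (-0.12 ± 0.0598, 0.173) and passed when only the groups compared were fitted (0.0431). With ABEmax SRSF1 averaged 877 ± 32.8 CPM with HEKsite2 and 897 ± 35.1 CPM with RNF2, and was not called against nCas9 (adjusted p = 0.163 and 0.545). Over GFP, nCas9 was higher by 0.37 ± 0.0598 with HEKsite2 (adjusted p = 4.49e-06) and 0.34 ± 0.0598 with RNF2 (1.28e-05). The annotation places AC015813.2, a gene that is not in the table, over 1890 exonic bases of SRSF1 on the same strand.

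SRSF2 (SC35), a speckle protein that promotes inclusion of exons and also the release of paused RNA polymerase, was called lower than nCas9 in 6 of the 8 editor groups: Target-AID and SpACE under both guides, ABEmax under HEKsite2 and miniABEmax-V82G under RNF2. It had 314, 313 and 316 CPM in ABEmax, 284, 291 and 291 in Target-AID and 294, 283 and 299.7 in SpACE with HEKsite2, against 398, 353 and 357 in nCas9. With RNF2 it had 296, 315 and 321 CPM in miniABEmax-V82G, 275, 277 and 309.7 in Target-AID and 312, 289.7 and 310.1 in SpACE, against 345, 363 and 364 in nCas9. All 8 editor groups lay wholly below nCas9, ABEmax with RNF2 by a small margin (highest 343.3 against lowest 344.7 CPM). The pair not called were that group (-0.11, adjusted p = 0.249) and miniABEmax-V82G with HEKsite2 (-0.17, 0.0579). The second passed with DESeq2 (0.0312) and with the replicate block (0.0487). The differences were, in Target-AID, -0.35 ± 0.0576 with HEKsite2 (adjusted p = 4.01e-06) and -0.32 ± 0.0576 with RNF2 (3.47e-05), and, in SpACE, -0.34 ± 0.0577 with HEKsite2 (3.57e-05) and -0.23 ± 0.0576 with RNF2 (0.00432). ABEmax with HEKsite2 gave -0.23 ± 0.0579 (0.00466), a call that was lost without replicate 1 of nCas9. MiniABEmax-V82G with RNF2 gave -0.20 ± 0.0578 (0.0168), which was lost without its replicate 1 or without replicate 2 or 3 of nCas9. Against GFP (344, 324 and 325 CPM) it was higher in nCas9 with HEKsite2 (0.16 ± 0.0573, adjusted p = 0.0257), and that call was lost with no filter on low counts (0.0902) and without replicate 1 of nCas9 or replicate 2 or 3 of GFP. It was lower than GFP in Target-AID with HEKsite2 (-0.20 ± 0.0575, 0.00476), in Target-AID with RNF2 (-0.20 ± 0.0575, 0.00327) and in SpACE with HEKsite2 (-0.18 ± 0.0575, 0.0123), the last of which was lost without replicate 1 of GFP or replicate 2 of SpACE.

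SRSF3, which is known to promote inclusion of a poison exon in its own transcript, was lower than GFP in all 10 comparisons, where CLK1 and CLK4 were higher. It had 592, 584 and 564 CPM in ABEmax with HEKsite2 and 610.2, 618 and 570.5 CPM in ABEmax with RNF2. In nCas9 it had 683, 644 and 608 CPM with HEKsite2 and 662, 682 and 642 CPM with RNF2. Its GFP libraries, with 777, 728 and 737 CPM, lay above every other library of the series. The difference from GFP was -0.21 ± 0.0545 in nCas9 with HEKsite2 (adjusted p = 0.00188) and -0.17 ± 0.0545 with RNF2 (0.00895), the second of which was lost without replicate 1 of GFP or replicate 3 of nCas9. Against GFP the editors ran from -0.37 ± 0.0547 in ABEmax with HEKsite2 (adjusted p = 6.36e-07) to -0.20 ± 0.0544 in SpACE with RNF2 (0.00334), and all 8 were called. Against nCas9 none of 8 passed; ABEmax with HEKsite2 came closest, at -0.15 ± 0.0549 (adjusted p = 0.0502). That difference passed with the replicate block (0.0401) and without replicate 3 of nCas9 (0.0242). DESeq2 called it too (0.0232), as well as ABEmax with RNF2 (0.0420) and miniABEmax-V82G with RNF2 (0.0397). Target-AID with RNF2 differed by -0.11 ± 0.0546 and passed without its replicate 3 (-0.16, 0.0170). SRSF5 (SRp40; chr14:69726900-69772005, plus strand), first described in rat liver cells as a gene induced by insulin, was called in none of the 8 comparisons with nCas9. Its 33 libraries ran from 103 to 155 CPM, no neighbouring groups were free of overlap, and its 8 differences from nCas9 ran from -0.15 to 0.17 with 95% intervals between -0.34 and 0.37. It was called against GFP in ABEmax with RNF2 (139, 155 and 129 CPM against 123, 126 and 112 CPM; 0.23 ± 0.0942, adjusted p = 0.0424), and that call was lost when replicate 1 or 2 of ABEmax or replicate 1 or 3 of GFP was left out.

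**Figure D4:**
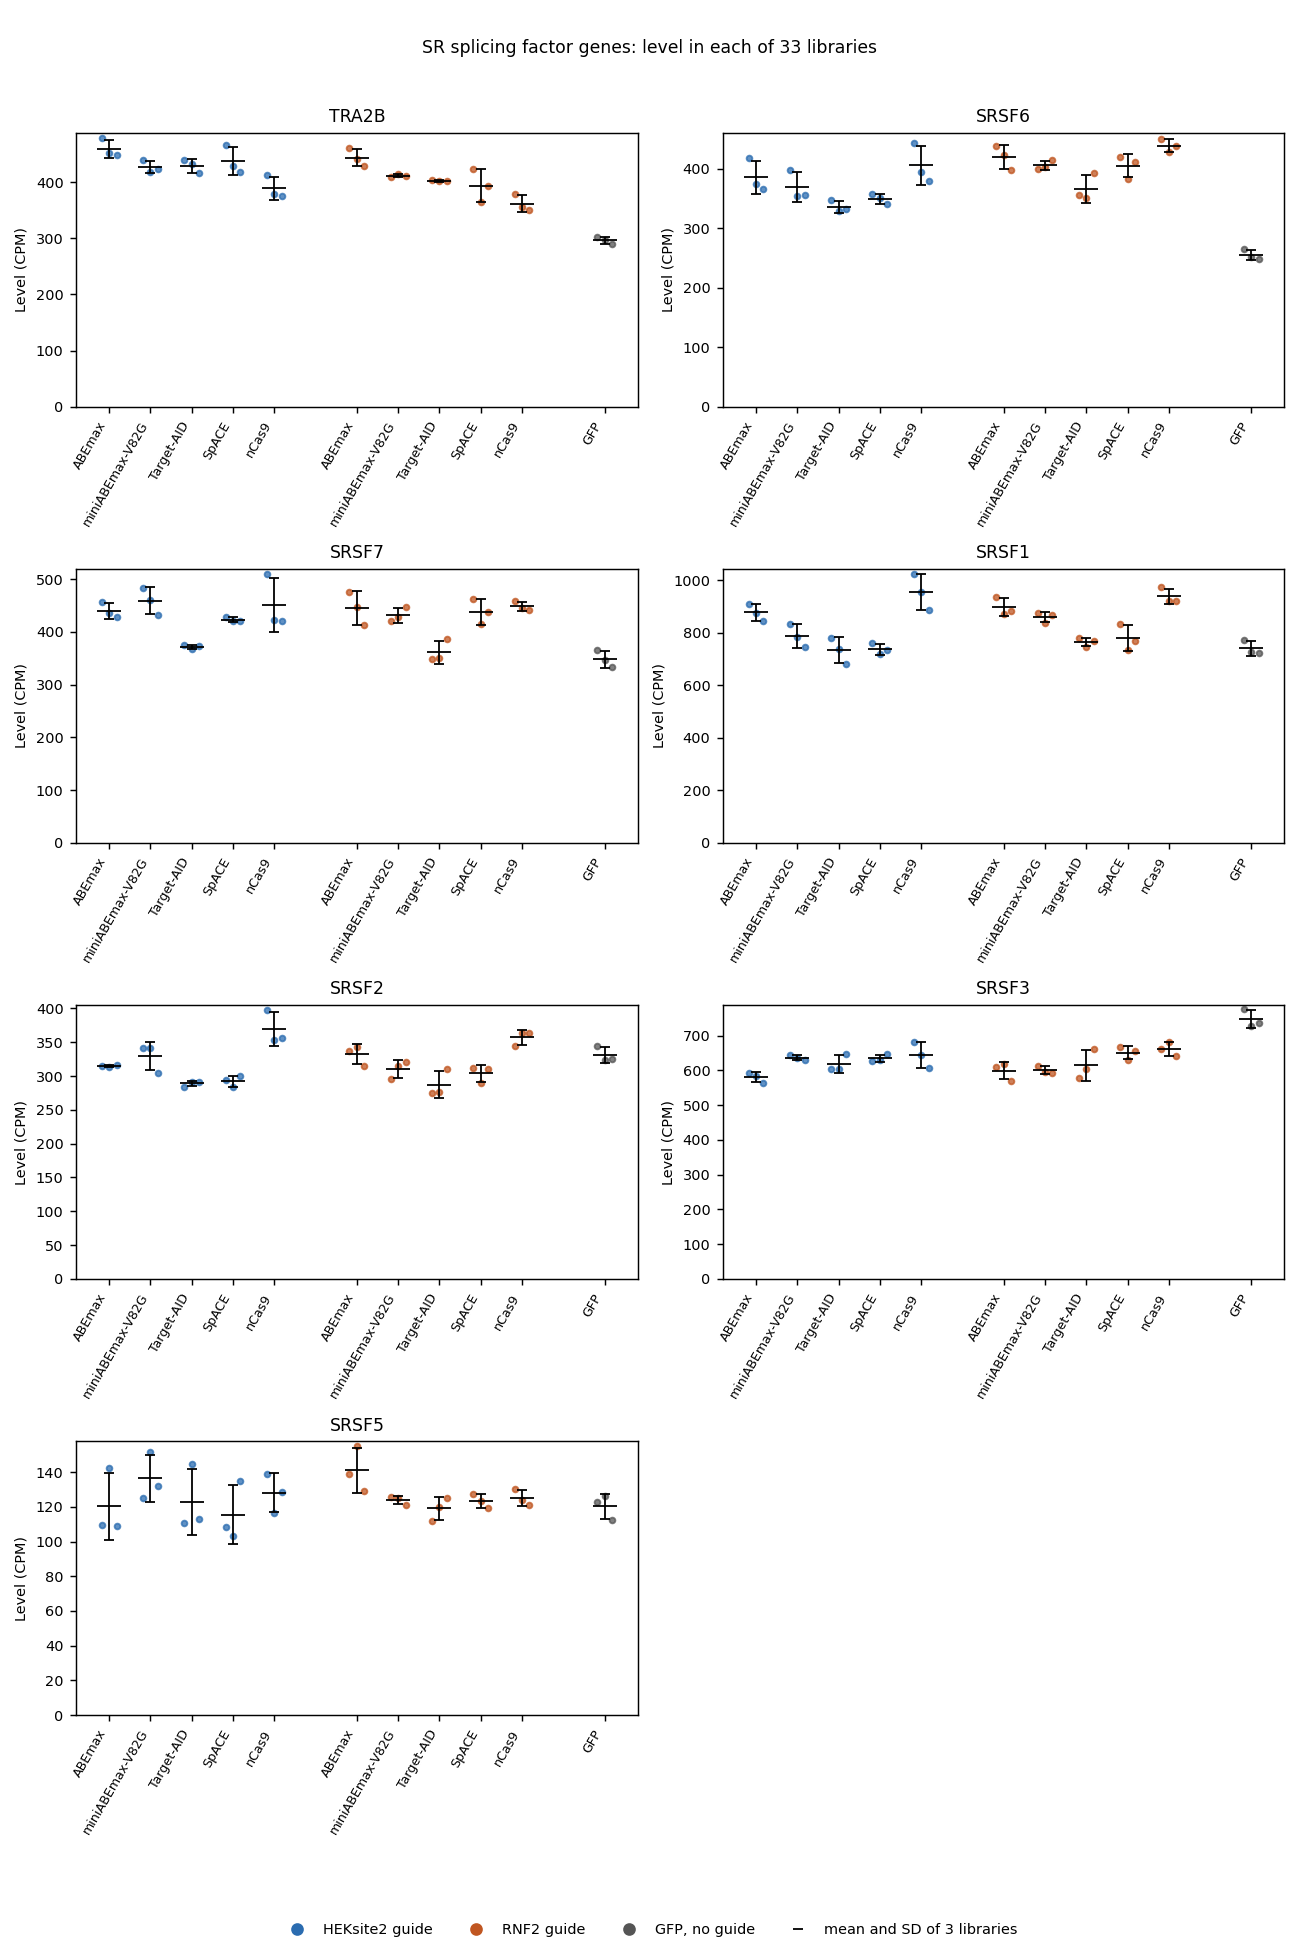
Level in CPM of 7 SR splicing factor genes in each of 33 libraries (points, 3 per group), with the group mean and SD in black; editors stand left of nCas9 for each guide and GFP is last. TRA2B and SRSF6 have their GFP libraries below all others, SRSF3 has them above all others, and SRSF5 overlaps throughout.

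SpACE, which carries both kinds of deaminase, was set against miniABEmax-V82G and against Target-AID. None of the 10 genes was called between SpACE and miniABEmax-V82G with HEKsite2, where 0.739% of all genes were called, and DESeq2 also called 0. By edgeR 4 of the 10 had an unadjusted p under 0.05, beside 2156 of the 14613 genes tested. With RNF2, where 3.08% and 2.77% of all genes were called higher and lower, CLK4 was lower in SpACE (26.0, 25.1 and 27.5 CPM against 36.1, 34.3 and 36.4 CPM; a log2 difference of -0.44 with a 95% interval of -0.65 to -0.24, adjusted p = 0.00716). CLK1 differed there by -0.27 ± 0.0965 and missed the test (adjusted p = 0.0892). That difference passed with no filter on low counts (0.0240) and when only the groups compared were fitted (0.00623). Against Target-AID, CLK1 and CLK4 were lower and SRSF7 was higher in SpACE under both guides, beside 8.21% and 10.3% of all genes called higher and lower with HEKsite2 and 6.61% and 9.32% with RNF2. CLK4 differed by -0.47 ± 0.0981 with HEKsite2 (adjusted p = 5.06e-04) and -0.35 ± 0.0989 with RNF2 (0.0103). CLK1 differed by -0.27 ± 0.0932 (0.0386) and -0.36 ± 0.0947 (0.00734), and SRSF7 by 0.19 ± 0.0637 (0.0332) and 0.28 ± 0.0637 (0.00176). SRSF1, SRSF2 and TRA2B were within 0.083 on the log2 scale of their Target-AID levels, with 95% intervals inside -0.14 to 0.20. Several of these calls depended on single libraries: SRSF7 with HEKsite2 was lost whichever of the 6 libraries was left out, CLK1 with HEKsite2 in 4 of 6 and with DESeq2, CLK1 with RNF2 in 2 of 6, and CLK4 with RNF2 fell to -0.19 (adjusted p = 0.243) without replicate 1 of Target-AID. SRSF7 and CLK4 with RNF2 were also lost when only the groups compared were fitted (adjusted p = 0.0558 and 0.110). SRSF6 with RNF2 was not called (0.15 ± 0.0612, adjusted p = 0.0981) and passed at 0.20 (0.0190) without replicate 3 of Target-AID.

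The guide made no called difference. Between RNF2 and HEKsite2 in nCas9, 0 of the 10 genes were called by edgeR or DESeq2, while 2.07% of all genes were called. An unadjusted p under 0.05 by edgeR was found for 0 of the 10, beside 2222 of the 14613 genes tested. The largest values were 0.11 for SRSF6 and -0.10 for TRA2B, and all 95% intervals lay between -0.23 and 0.27. By edgeR or DESeq2, no effect of the 4 editors over nCas9 was called as different between guides for any of the 10 genes. At an unadjusted p under 0.05 by edgeR there was 1, CLK2 in miniABEmax-V82G, where 982 of the 14613 genes tested passed that level. For ABEmax, Target-AID and SpACE, 596, 1265 and 1083 of all genes passed it. Over all genes 0% were called for ABEmax, 0.0137% for miniABEmax-V82G, 0.164% for Target-AID and 0.0274% for SpACE. The interval for a difference between guides reached from -0.50 to 0.06 for CLK1 in SpACE, so the call of CLK1 with HEKsite2 and its absence with RNF2 is not shown to be a difference between guides.

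The 10 genes fell into groups by the shape of their levels over the 11 group means of log2 CPM. These correlations are descriptions over groups that share guides and controls. TRA2B and CLK1 had r = 0.933, CLK1 and CLK4 0.885, and TRA2B and CLK4 0.839. SRSF3 ran opposite to all 3, with r = -0.921 for TRA2B, -0.909 for CLK1 and -0.933 for CLK4. GFP stands far from the other groups, and over the 10 groups with a guide these values were 0.826, 0.685 and 0.461 for the first 3 pairs and -0.762, -0.763 and -0.793 for SRSF3. SRSF1 and SRSF2 had r = 0.767 over 11 groups and 0.882 without GFP, and SRSF1 and SRSF6 0.715 and 0.841. SRSF6 and CLK1 changed sign, with r = 0.468 over all groups and -0.528 without GFP. CLK2 had no r beyond 0.394 in size with any of the others over 11 groups.

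**Figure D5:**
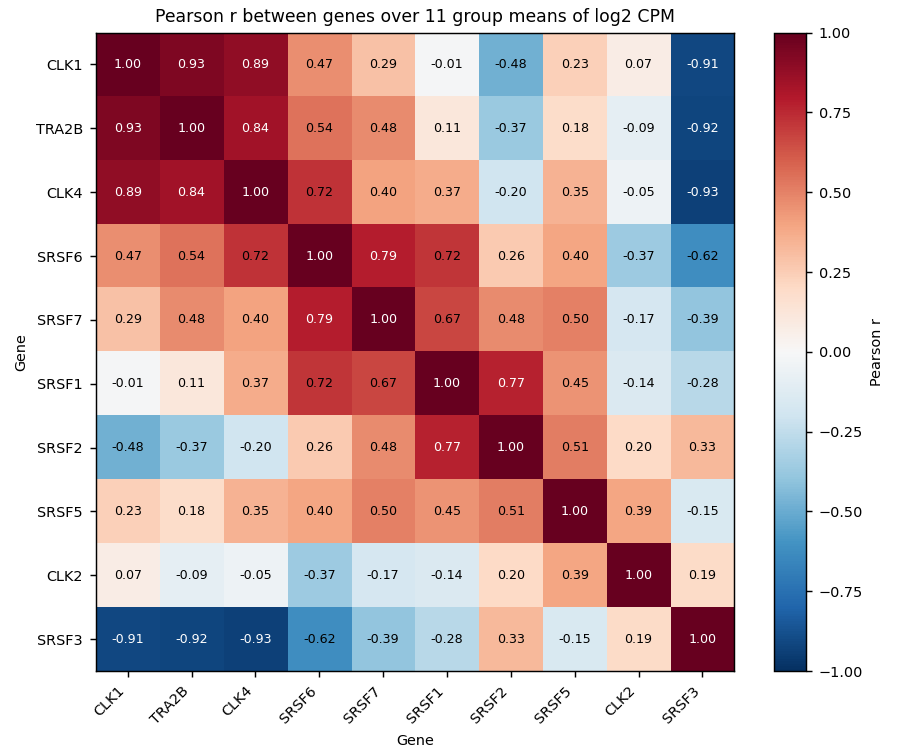
Pearson r between each pair of the 10 genes over 11 group means of log2 CPM, as colour and number. CLK1, TRA2B and CLK4 run together (r from 0.84 to 0.93), SRSF3 runs opposite to them, and CLK2 is weakly related to every other gene.

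Among 10183 genes whose log2 CPM averaged 3 or more, those with a pattern most like each member over the 11 groups were listed, 3 for each. The 10 members and genes with LOC, LINC, antisense or clone names were left out of the 10183. These r values are the highest of many, over group means that include GFP. For CLK1 they were FAM184A (r = 0.98), ZFAND2A (0.97) and MAD2L1BP (0.97). CLK4 was most like TGFBRAP1, ZBTB17 and UHRF2 (0.97 each), and TRA2B most like IRAK2 (0.99), MXD1 (0.97) and PPP1R13B (0.96). For SRSF6 they were AMDHD2, CKAP4 and ATAD3B (0.96 each), for SRSF7 CENPU (0.99), ADRM1 (0.98) and EMC3 (0.97), and for SRSF1 SLC31A1, BCLAF1 (0.97 each) and REPIN1 (0.96). SRSF2 was most like TMEM99 (0.97), MSL3 and SC5D (0.96 each), and SRSF3 most like MANEA, HDDC2 and ASAH1 (0.97 each). SRSF5 and CLK2 had no close match, with GNPTG at 0.87 and C16orf70 at 0.82 as their highest. All 30 genes were the same under RLE scaling.

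CLK3, the remaining CLK kinase, was higher than nCas9 with both adenine editors, by 0.31 ± 0.0846 in ABEmax and 0.25 ± 0.0827 in miniABEmax-V82G with HEKsite2 (adjusted p = 0.00853 and 0.0408), and by 0.26 ± 0.0830 and 0.27 ± 0.0831 with RNF2 (0.0330 and 0.0269). In Target-AID and SpACE its differences from nCas9 ran from -0.015 to 0.10 and none was called. It was higher in nCas9 than in GFP by 0.49 ± 0.0869 with HEKsite2 (adjusted p = 1.77e-05) and 0.52 ± 0.0864 with RNF2 (5.29e-06). SRPK1 and SRPK2, the cytoplasmic SR protein kinases, were called in none of the 8 comparisons with nCas9, with differences between -0.076 and 0.13. Among 13 SR protein kinases, phosphatases, their regulators and importer, these 3 included, from 0 to 3 were higher and from 0 to 2 lower in the 8 comparisons. The most, 3 and 2, came in Target-AID with HEKsite2, beside 21.5% and 19.1% over all genes. Of 7 other SR proteins, 1 to 3 were higher and 0 or 1 lower in those comparisons. Over all genes the shares called in them ran from 5.02% to 21.5% higher and from 4.66% to 19.1% lower. The 3 came in ABEmax with RNF2, beside 6.51% of all genes. Target-AID with RNF2 had 1 higher and 1 lower, beside 19.4% and 15.8%. Medians of the 7 ran from 0.010 to 0.11, beside medians from -0.00515 to 0.00349 over all genes. SRSF11 was called higher in 6 of the 8, for example at 0.34 ± 0.0740 in miniABEmax-V82G with HEKsite2 (adjusted p = 0.00165), and SRSF9 was lower in Target-AID with HEKsite2 (-0.44 ± 0.0665, 1.23e-06).

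Of 23 SR-related proteins, against nCas9 with HEKsite2, 5 were higher and 1 lower in ABEmax (8.31% and 7.55% of all genes called higher and lower), 1 and 1 in miniABEmax-V82G (5.02% and 5.32%), 7 and 8 in Target-AID (21.5% and 19.1%) and 4 and 4 in SpACE (10.7% and 10.2%). With RNF2 they were 7 and 0 in ABEmax (6.51% and 4.66%), 5 and 0 in miniABEmax-V82G (6.88% and 5.72%), 6 and 4 in Target-AID (19.4% and 15.8%) and 3 and 1 in SpACE (8.03% and 6.68%). RBM39, a U2AF-like splicing factor, was the largest rise of the list in ABEmax, miniABEmax-V82G and SpACE under both guides. With ABEmax it was higher by 0.52 ± 0.0611 with HEKsite2 (adjusted p = 3.84e-08) and 0.56 ± 0.0608 with RNF2 (7.40e-09). BCLAF1, an SR-related protein of mRNP processing, was the largest fall in Target-AID with HEKsite2 (-0.62 ± 0.0640, 3.00e-10) and with RNF2 in SpACE (-0.41 ± 0.0638, 1.01e-05). Genes of the core spliceosome were called lower than nCas9 more often than higher in every editor group. The same held for genes of hnRNP proteins, which often oppose SR proteins at exons, except in 2 editors with RNF2. Those were ABEmax, with 1 hnRNP gene higher and 0 lower, and miniABEmax-V82G, with 0 and 0. In Target-AID, of 33 tested core genes 1 was higher and 21 lower with HEKsite2 (median -0.28), and 1 and 16 with RNF2 (median -0.17), beside 19.1% and 15.8% of all genes called lower. SNRPD3, a core Sm protein, fell by 0.55 ± 0.0577 with HEKsite2 on the log2 scale (adjusted p = 4.78e-10). Of 20 hnRNP genes 1 was higher and 12 lower with HEKsite2 and 1 and 8 with RNF2; HNRNPM fell by 0.40 ± 0.0729 and 0.31 ± 0.0728 (2.22e-05 and 7.82e-04). In ABEmax with HEKsite2, 2 core genes were higher and 10 lower, and 0 and 5 hnRNP genes, beside 8.31% and 7.55% of all genes. In SpACE with HEKsite2 the counts were 3 and 6 and 1 and 4, beside 10.7% and 10.2%. In the other 4 groups from 0 to 2 core genes were higher and from 2 to 5 lower, and from 0 to 1 hnRNP genes were higher and from 0 to 3 lower. Over all genes the shares in those groups ran from 5.02% to 8.03% higher and from 4.66% to 6.68% lower. Against GFP, hnRNP genes were also called lower more often than higher in nCas9, with 2 higher and 9 lower of 20 with HEKsite2 and 2 and 11 with RNF2, while 10 of 23 SR-related genes were higher and 3 lower with HEKsite2 and 8 and 2 with RNF2. Over all genes 19.6% and 18.8% were called higher and lower with HEKsite2 and 21% and 20.5% with RNF2.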

How the data were processed

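Total RNA of HEK293T cells was sequenced from stranded libraries, per the labels' protocols. The authors deposited 1 table of raw read counts per gene for 33 libraries, which was used without rescaling. STAR, GATK 3.8.1 and Picard 2.7 are named in the submitters' processing notes, with the build GRCh38; which program counted reads, with which strand setting and annotation, is not given in the sources used here. Genes were filtered with filterByExpr, TMM set the library sizes, and 1 model over all 33 libraries was fitted in edgeR 4.0.16 (R 4.3.3, limma 3.58.1) by the quasi-likelihood test. P-values are two-sided and Benjamini-Hochberg adjusted over the 14613 genes kept, with a threshold of 0.05; intervals are 95%. Total counts ran from 6790209 to 11200406. On simulated data for ABEmax minus nCas9 with HEKsite2, 50 genes with ample counts were changed at each fold. Of those changed 1.25-fold 56% were recovered, and of those changed 1.5-fold 92%. Far fewer genes were changed there than the 2318 called in the data, so recovery in the data can differ. Alternatives were RLE scaling, no filter, DESeq2 1.42.0, the replicate number as a block, only the groups compared, and leaving out each library. The genes and lists were chosen with earlier results of these data known. Named genes are all 10 members, the 3 genes most correlated with each, and the largest called rise and fall of each list against nCas9; CLK3, SRPK1 and SRPK2, and the values of named list genes in other comparisons, were added after their values were seen. Positions are from GENCODE 29 and promoters from RefSeq (GRCh38.p14); not all promoter windows are reported here. Figures were drawn with matplotlib 3.10.9.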

Additional observations from a re-analysis of the deposited data

How the results depend on the processing

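Of 108 called differences of the 10 genes, 90 were kept under every alternative run and 18 were lost under at least 1, and no called difference changed sign. Of 162 not called, 13 passed under some alternative. With miniABEmax-V82G and HEKsite2, 2 of the genes were called against nCas9 and 4 with the replicate block. With miniABEmax-V82G and RNF2 the count against nCas9 was 3, and 6 when only the groups compared were fitted, and it ran from 1 to 3 when each library was left out. Between SpACE and miniABEmax-V82G with RNF2 it was 1, and 2 both with no filter and with only the groups compared. Between SpACE and Target-AID it was 3 with each guide; with HEKsite2 it ran from 1 to 2 when each library was left out, and with RNF2 it was 1 with only the groups compared. The cause of these shifts was not tested. Over all genes, miniABEmax-V82G with RNF2 had 1842 calls against nCas9 and 2865 with only the groups compared. Target-AID with RNF2 had 5146 against nCas9 and 3446 with only those groups, and SpACE with RNF2 had 2328 against Target-AID and 798 with only those groups. The main fit shares 1 estimate of a gene's spread over all 11 groups, those with replicates farther apart included. SpACE minus miniABEmax-V82G had 108 calls with HEKsite2, against 247 with no filter, 202 with the replicate block and 194 with only the groups compared, and 855 with RNF2, against 1874 with only the groups compared. RLE scaling moved the median of all genes by at most 0.00537. In 0 of 23 comparisons checked did all 3 pairs of same-numbered libraries correlate above 0.1 in their deviations from group means. Even so, 24 of 33 libraries correlated best, on average, with libraries of their own number in other groups. The main fit held no term for replicate number. With that number as a block, calls over all genes for ABEmax minus nCas9 with HEKsite2 went from 2318 to 2513. For miniABEmax-V82G minus nCas9 with that guide they went from 1511 to 1718.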
